A study of Mus musculus with 4 samples.

Results

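The lung tissue of mice given amiodarone + dabigatran was compared with that of mice given dabigatran alone, here called the amiodarone change on a dabigatran background. With 1 library a side, the drug and differences between animals or tissue samples cannot be told apart. The comparison took in every gene that reached 1 FPKM, a level that corrects fragment counts for transcript length and library depth, in either library, which was 13379 of the 17780 genes listed (75.2%). Differences were taken as log2((FPKM with both drugs + 1)/(FPKM with dabigatran + 1)), a scale on which changes of weakly expressed genes look smaller than they are.

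The study sequenced polyadenylated RNA from the left lung of male C57BL/6J mice (C57BL/6 in the labels), bought at 6 to 7 weeks of age. The mice received oral vehicle (0.5% carboxymethylcellulose), amiodarone at 300 mg per kg per day, dabigatran etexilate at 60 mg per kg per day, or the same doses of both drugs, 5 times per week. The methods date the tissue to day 26 and the labels give 28 days of treatment. Each of the 4 groups, vehicle, amiodarone, dabigatran and amiodarone + dabigatran, was 1 library, so no difference has a replicate check and no p-value is given. Intervals are exact 95% Clopper-Pearson intervals on the reads of both libraries, rescaled to FPKM. They cover counting error only, because 1 library a group holds no spread between animals. Sequenced fragments are not independent molecules, so even the counting error may be larger than shown.

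Amiodarone is an iodinated antiarrhythmic whose cationic amphiphilic molecules collect in lysosomes and hinder the breakdown of phospholipids there. Lung macrophages that take up the undegraded lipid become foamy, and pulmonary toxicity is a known adverse effect of the drug. Dabigatran, given as its prodrug, blocks thrombin, the protease that forms fibrin and acts on cells through protease-activated receptors.

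Estimated reads totalled 18903401 in the amiodarone + dabigatran library and 17752873 in the dabigatran library, and the libraries with vehicle and amiodarone held 17498486 and 18725403. A count of 0 allows up to 3 reads per library, or 0.159 CPM (reads scaled to a common library total) with both drugs and 0.169 CPM with dabigatran. Defining lung genes were high and close in level in both libraries. The surfactant gene Sftpc stood at 20385 FPKM with both drugs and 19876 FPKM with dabigatran, Ager of alveolar type 1 cells at 2462 and 2248 FPKM, and Scgb1a1 of club cells at 97786 and 99032 FPKM.

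With both drugs, genes of neutrophils and of lipid-laden macrophages, and targets of glucocorticoid, were higher than with dabigatran alone. Most lysosomal genes were slightly higher, few of them past 1.5-fold. Genes of the immediate early response, globins, several secreted airway defence proteins and fibrillar matrix were lower. Most genes hardly differed. The median difference over the 13379 genes was -0.01 on the log2 scale, with quartiles of -0.14 and 0.12, and 12671 genes (94.7%) lay within 1.5-fold. Of all genes compared 6306 were above 0 and 7028 below 0, the background for the counts by sign given for lists in this comparison. For amiodarone against vehicle, signs were not counted over all genes, and the median over the same genes was -0.04. At least 2-fold higher with both drugs were 154 genes (1.15% of those compared), and at least 2-fold lower were 58 (0.434%). At 1.5-fold the counts were 435 higher (3.25%) and 273 lower (2.04%). The counting intervals of all 212 genes past 2-fold left out no change, as did those of 5754 genes (43%) in all, and 42 of the 212 were under 5 FPKM in both libraries. A gene is said to have risen or fallen where it passed 1.5-fold on this scale and its counting interval left out no change.

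**Figure D1:**
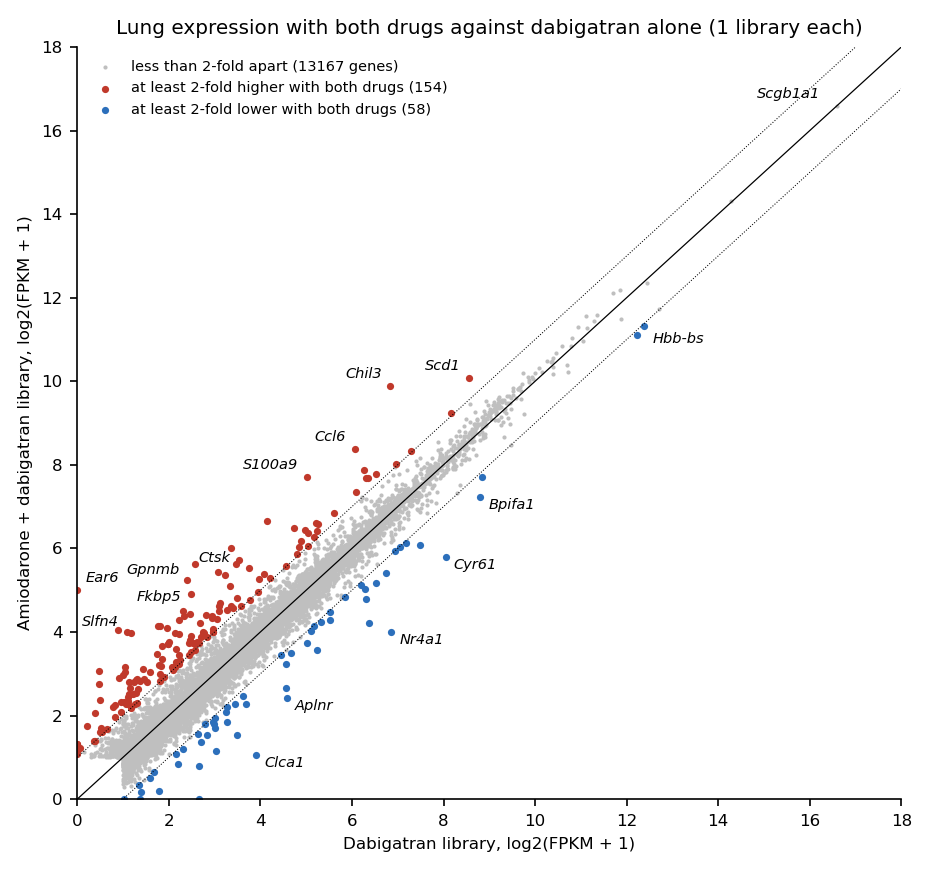
Each point is 1 of the 13379 genes, placed by its log2(FPKM + 1) in the dabigatran library (horizontal) and in the amiodarone + dabigatran library (vertical), with dotted lines at 2-fold. The 154 red genes lie above the upper line and the 58 blue genes below the lower one, and most of the other genes sit close to the diagonal.

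Neutrophil markers gave the highest median of the gene lists, 1.74 over 15 compared genes, against -0.01 over all genes. Of these 15 genes, 12 were at least 1.5-fold higher, 11 of them at least 2-fold, and 2 were at least 1.5-fold lower. In bulk tissue, a change in the number of cells of a type and a change in RNA per cell cannot be told apart, here and in every list that follows. S100a9 (chr3:90692630-90695721), a subunit of the calcium-binding protein calprotectin that fills neutrophil cytosol, was at 45.0 FPKM (vehicle), 276 (amiodarone), 31.2 (dabigatran) and 207 (both drugs). The ratio of both drugs to dabigatran was 6.65 (5.83 to 7.60). Its partner S100a8 rose from 16.7 to 99.4 FPKM (5.94-fold, 4.80 to 7.41). Both libraries without amiodarone were low in calprotectin genes and both libraries with it were high.

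Receptors that guide or sustain neutrophils moved the same way. Csf3r, the receptor for granulocyte colony-stimulating factor, rose from 7.40 to 42.0 FPKM (5.67-fold, 5.07 to 6.36). The interleukin-8 receptor Cxcr2 rose from 2.33 to 10.02 FPKM, and the related Cxcr1 from 0.85 to 15.6 FPKM (18.4-fold, 11.3 to 31.9). Other neutrophil genes rose with them, among them the granule collagenase gene Mmp8 from 1.06 to 7.88 FPKM and the resistin-like gene Retnlg from 9.22 to 63.5 FPKM. Other granule genes gave another picture. Mpo and Elane, of the primary granules, stayed under 1 FPKM in both libraries, and Ltf, of the secondary granules and also made by airway glands, fell from 33.2 to 15.2 FPKM. Apart from the granule genes, G0s2 fell as well, from 72.2 to 39.5 FPKM.

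The foamy macrophage and lipid-storage list had a median of 0.94 over 20 genes, of which 14 were at least 1.5-fold higher, 9 at least 2-fold, and none 1.5-fold lower. Gpnmb (chr6:49036518-49058182), a transmembrane glycoprotein of lysosome-stressed macrophages, was at 3.38 FPKM (vehicle), 37.9 (amiodarone), 4.30 (dabigatran) and 37.0 (both drugs). Its level with both drugs was 8.61 times that with dabigatran (7.62 to 9.76), and the libraries with amiodarone were again far above those without it. Trem2, a lipid-sensing receptor, rose from 2.94 to 12.2 FPKM and the scavenger Msr1 from 1.08 to 2.84 FPKM. Spp1, which encodes osteopontin, rose from 35.9 to 96.4 FPKM, the fatty acid carrier Fabp5 from 48.1 to 115 FPKM, and Apoe, which carries cholesterol out of macrophages, from 383 to 705 FPKM. Plin2, the coat protein of lipid droplets, was at 50.8 FPKM with dabigatran and 64.6 with both drugs, under 1.5-fold, and the fatty acid transporter Cd36 at 336 and 278.

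Chil3 (chr3:106147554-106167564), a chitinase-like protein secreted by alveolar macrophages, showed the largest gain in FPKM of the genes that rose past 2-fold. It was at 90.3 FPKM (vehicle), 731 (amiodarone), 113 (dabigatran) and 940 (both drugs), so the ratio of both drugs to dabigatran was 8.29 (7.98 to 8.61). Chil3 and its close copy Chil4 summed to a ratio of 8.26. Of 14 compared alveolar macrophage markers, 9 were at least 1.5-fold higher, 4 at least 2-fold, and 1 was at least 2-fold lower. The integrin Itgax rose from 9.22 to 23.5 FPKM, the scavenger receptor Marco from 4.41 to 12.2 FPKM and the sialic acid receptor Siglecf from 2.44 to 5.63 FPKM. Marco stood at 1.66 FPKM with vehicle and 4.39 with amiodarone, so it was higher in the libraries with dabigatran than in their counterparts without it. Fabp1 was the member that fell, from 5.46 to 1.58 FPKM.

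Markers of monocytes and interstitial macrophages had a median of 0.73 over 16 genes, with 10 at least 1.5-fold higher. Ly6c2, which marks inflammatory monocytes, rose from 34.9 to 75.8 FPKM, the integrin Itgam from 5.47 to 11.7 FPKM and the chemokine receptor Ccr2 from 7.10 to 13.1 FPKM. Csf1r, the receptor that keeps macrophages alive, differed little at 40.9 and 44.9 FPKM, and Cx3cr1 of patrolling monocytes was at 6.89 and 4.84 FPKM. Of 17 compared complement and Fc receptor genes 10 were at least 1.5-fold higher. The activating Fc receptors Fcgr4 and Fcgr3 rose from 3.68 to 18.4 FPKM and from 12.5 to 45.3 FPKM, the inhibitory Fcgr2b rose from 9.70 to 16.4 FPKM, and the complement opener C1qa rose from 42.4 to 72.5 FPKM.

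Ear6, an eosinophil-associated ribonuclease, headed all rises, with 0 reads with dabigatran and 385 reads with both drugs, at least 120-fold higher against a floor of 3 reads. Its copy Ear1 fell from 24.4 to 10.3 FPKM, and Ear2 was at 60.4 and 64.8 FPKM. Reads can be divided differently among such near-identical genes, and the sum of the 3 was 84.8 FPKM with dabigatran and 106 FPKM with both drugs, a ratio of 1.25, so the values of single Ear genes are uncertain. Other defining eosinophil genes were near 0, with Prg2 at 0.07 FPKM with both drugs and Ccr3 at 0.05 FPKM with dabigatran.

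Lysosomal genes were mostly higher, few of them past 1.5-fold. Among 28 hydrolases and activator proteins the median was 0.28, 25 were above 0, and 6 were at least 1.5-fold higher, 3 of them at least 2-fold. These 3 were cathepsins. Ctsk, a collagen-degrading cathepsin, rose from 10.6 to 51.6 FPKM (4.88-fold, 4.30 to 5.55), Ctss, which trims the class II chaperone, from 80.3 to 206 FPKM, and Ctsd, the major aspartic protease, from 287 to 606 FPKM (2.11-fold, 2.06 to 2.16). Npc2, which hands cholesterol out of the lysosome, rose from 235 to 374 FPKM. Phospholipid- and sphingolipid-degrading enzymes moved less, with Pla2g15, the lysosomal phospholipase A2, at 13.8 and 17.9 FPKM and Smpd1 at 51.7 and 50.9. In the 26 genes of the proton pump and the lysosomal membrane, 24 were above 0 with a median of 0.20. Only Atp6v0d2, a pump subunit of macrophages and osteoclasts that rose from 8.43 to 40.1 FPKM, and Cd68, a macrophage lysosomal glycoprotein that rose from 25.8 to 89.2 FPKM, passed 1.5-fold. The autophagy list of 18 genes had none past 1.5-fold.

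The lysosomal E-box CACGTGAC, to which factors of the TFEB family bind, was searched on both strands in the 250 bases before each RefSeq start (GRCm38.p6). It was in the windows of 5 of the 21 hydrolase genes that matched a window (Ctsa, Ctsd, Glb1, Gla and Lgmn), of which Ctsd was at least 2-fold higher and the other 4 were under 1.5-fold. The 21 genes had 24 windows, 5 of them with these letters, and of all 32851 windows 1.85% hold them. The Ctsd window is shown because its gene was among the 3 cathepsins past 2-fold and holds the letters at 2 places, in capitals, which start 245 and 98 bases before the gene (chr7:142387828-142388077, minus strand, 5′ to 3′).
Ctsd: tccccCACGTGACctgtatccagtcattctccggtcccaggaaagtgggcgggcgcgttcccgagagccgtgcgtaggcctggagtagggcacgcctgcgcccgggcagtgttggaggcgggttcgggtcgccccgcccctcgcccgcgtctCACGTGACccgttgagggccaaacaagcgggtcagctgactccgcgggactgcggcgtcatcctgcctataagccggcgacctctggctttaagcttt

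Genes of cholesterol handling divided. Among 14 compared genes of the liver X receptor (LXR) and cholesterol efflux list the median was 0.53 and 6 were at least 1.5-fold higher, 2 of them at least 2-fold. Scd1, the desaturase that makes monounsaturated fatty acids, was at 314 FPKM (vehicle), 880 (amiodarone), 376 (dabigatran) and 1075 (both drugs), 2.86 times its dabigatran level (2.82 to 2.89). The cholesterol exporter Abcg1 rose from 13.6 to 23.5 FPKM. In the cholesterol synthesis list of 23 compared genes the median was -0.31, with 16 below 0. Hmgcs1, which starts the pathway, fell from 31.1 to 20.3 FPKM, Idi1 from 14.6 to 8.71 and the sterol sensor Insig1 from 30.6 to 18.9, while Pmvk, a middle enzyme, rose from 17.4 to 33.2 FPKM. Scd1, also made by alveolar type 2 cells, was the only gene among 15 compared type 2 cell genes past 1.5-fold.

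Metallothioneins and glucocorticoid-responsive genes were all above 0 (14 of 14), with a median of 0.9985, 11 at least 1.5-fold higher and 7 at least 2-fold. Fkbp5 (chr17:28398753-28486149), a co-chaperone that restrains the glucocorticoid receptor, was at 4.5 FPKM (vehicle), 31.2 (amiodarone), 4.51 (dabigatran) and 20.7 (both drugs). The ratio was 4.58 (4.05 to 5.20), and neither library without amiodarone came near those with it. Tsc22d3, an anti-inflammatory target also called GILZ, rose from 66.9 to 161 FPKM, the transcription factor gene Zbtb16 from 7.32 to 18.9, the clock gene Per1 from 22.6 to 46.6 and Angptl4, an inhibitor of lipoprotein lipase, from 9.17 to 33.5. The metal-binding Mt2 was at 56.7 FPKM (vehicle), 84.4 (amiodarone), 28.5 (dabigatran) and 71.0 (both drugs), and Mt1 at 110, 150, 73.3 and 146. In both metallothioneins the dabigatran library was the lowest of the 4. Of 15 clock genes, Per2 and Ciart rose with Per1, and the output gene Dbp (116 to 74.2 FPKM) and Nr1d1 (177 to 116 FPKM) fell.

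Promoter windows of 12 of these 14 genes were found. The glucocorticoid response element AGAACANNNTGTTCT, where N is any base, was in 0.00913% of all windows (3 of 32851), and Sgk1, a salt-handling kinase gene at 46.8 and 67.4 FPKM, under 1.5-fold, holds it in 1 of its windows. Metal response elements, written TGCACNC or TGCGCNC, were in 21.4% of all windows. Of the 21 windows of the 12 genes they were in 3, of Mt1, Mt2 and Per1. The Sgk1 (chr10:21993640-21993889, plus strand) and Mt2 (chr8:94172368-94172617, plus strand) windows are shown for these elements, in capitals on either strand.
Sgk1: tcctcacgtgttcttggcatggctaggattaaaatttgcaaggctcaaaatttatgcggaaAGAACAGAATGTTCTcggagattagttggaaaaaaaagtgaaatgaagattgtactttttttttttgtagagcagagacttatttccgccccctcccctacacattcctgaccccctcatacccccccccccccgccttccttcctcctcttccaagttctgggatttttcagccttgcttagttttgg
Mt2: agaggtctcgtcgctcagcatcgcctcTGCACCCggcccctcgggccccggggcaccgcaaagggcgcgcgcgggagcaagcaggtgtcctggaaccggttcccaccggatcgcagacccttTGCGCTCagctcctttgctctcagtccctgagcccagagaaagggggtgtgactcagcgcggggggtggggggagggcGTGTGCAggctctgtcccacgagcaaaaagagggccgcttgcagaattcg

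Interferon-stimulated genes moved modestly. Of 32 genes 29 were above 0 and the median was 0.41, with 9 at least 1.5-fold higher and 2 at least 2-fold, Slfn4 and Oas3. Slfn4, a schlafen gene of myeloid cells, was at 1.16 FPKM (vehicle), 50.2 (amiodarone), 1.12 (dabigatran) and 14.9 (both drugs) (13.3-fold, 10.5 to 17.1). Oas3, a sensor of double-stranded RNA, rose to 5.26 FPKM with both drugs, 3.51 times its dabigatran level (2.88 to 4.32), and was at 8.72 FPKM with amiodarone. Other antiviral genes moved less, with Ifit3 at 36.9 FPKM (vehicle), 184 (amiodarone), 42.6 (dabigatran) and 62.7 (both drugs), and Ifi44 at 3.44, 16.5, 4.47 and 4.56. The combination library lay between the dabigatran and amiodarone libraries for Slfn4, Oas3, Ifit3 and Ifi44. Of the 17 GTPases and chemokines induced by interferon gamma, 4 were at least 1.5-fold higher, among them Irgm2 (22.2 to 35.9 FPKM). All 16 genes of MHC class I and peptide loading were above 0 but within 1.5-fold (median 0.27), and the 10 class II genes had a median of 0.00.

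Of the interferon-stimulated genes 24 matched a promoter window, and 11 of them hold the interferon-stimulated response element GAAANNGAAA on either strand. The 24 genes had 28 windows, 12 of them with the element, which 2.98% of all windows hold. Oas3 is shown because it is 1 of the 2 genes past 2-fold, and Ifit3 because it holds the element yet stayed under 1.5-fold. The capitals mark the element, at 75 bases before Oas3 (chr5:120777660-120777909, minus strand) and at 156 and 122 bases before Ifit3 (chr19:34583279-34583528, plus strand).
Oas3: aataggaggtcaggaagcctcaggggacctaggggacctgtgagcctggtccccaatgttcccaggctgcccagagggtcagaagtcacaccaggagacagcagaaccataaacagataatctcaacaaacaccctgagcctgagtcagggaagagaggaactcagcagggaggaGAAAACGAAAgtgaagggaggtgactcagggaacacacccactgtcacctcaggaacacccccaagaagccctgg
Ifit3: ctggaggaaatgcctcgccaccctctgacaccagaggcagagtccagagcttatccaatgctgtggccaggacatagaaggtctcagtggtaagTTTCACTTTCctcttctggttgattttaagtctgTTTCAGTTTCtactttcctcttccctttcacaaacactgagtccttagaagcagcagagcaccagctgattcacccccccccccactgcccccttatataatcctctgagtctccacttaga

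Mediators of inflammation rose in part. Ccl6, a chemokine of macrophages, led the 20 compared chemokine ligands, from 65.6 to 330 FPKM (5.03-fold, 4.77 to 5.31), and 6 were at least 1.5-fold higher in all, with Ccl9 from 4.61 to 10.5 FPKM. The T cell attractant Ccl5 was at 101 and 78.6 FPKM and Cxcl10 at 1.94 and 1.92. Il1b rose from 3.63 to 14.5 FPKM (3.99-fold, 3.15 to 5.12) and Il18 from 8.15 to 15.7 FPKM. The stress cytokine Gdf15 rose from 0.99 to 6.89 FPKM, while Hspa5, the main chaperone of the endoplasmic reticulum, was at 129 and 151 FPKM.

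Coagulation genes, the pathway on which dabigatran acts, held 3 rises past 2-fold among 16 compared. F7, the extrinsic-pathway factor, was at 2.52 FPKM (vehicle), 11.3 (amiodarone), 2.99 (dabigatran) and 12.5 (both drugs) (4.18-fold, 3.33 to 5.28). F10 rose from 1.36 to 5.94 FPKM and F13a1, the fibrin crosslinker that macrophages also carry, from 4.75 to 12.4. Tissue factor F3 was at 40.0 and 46.1 FPKM and the thrombin receptor F2r at 99.4 and 113, both under 1.5-fold, and F2, which encodes prothrombin, was under 1 FPKM in both libraries.

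**Figure D2:**
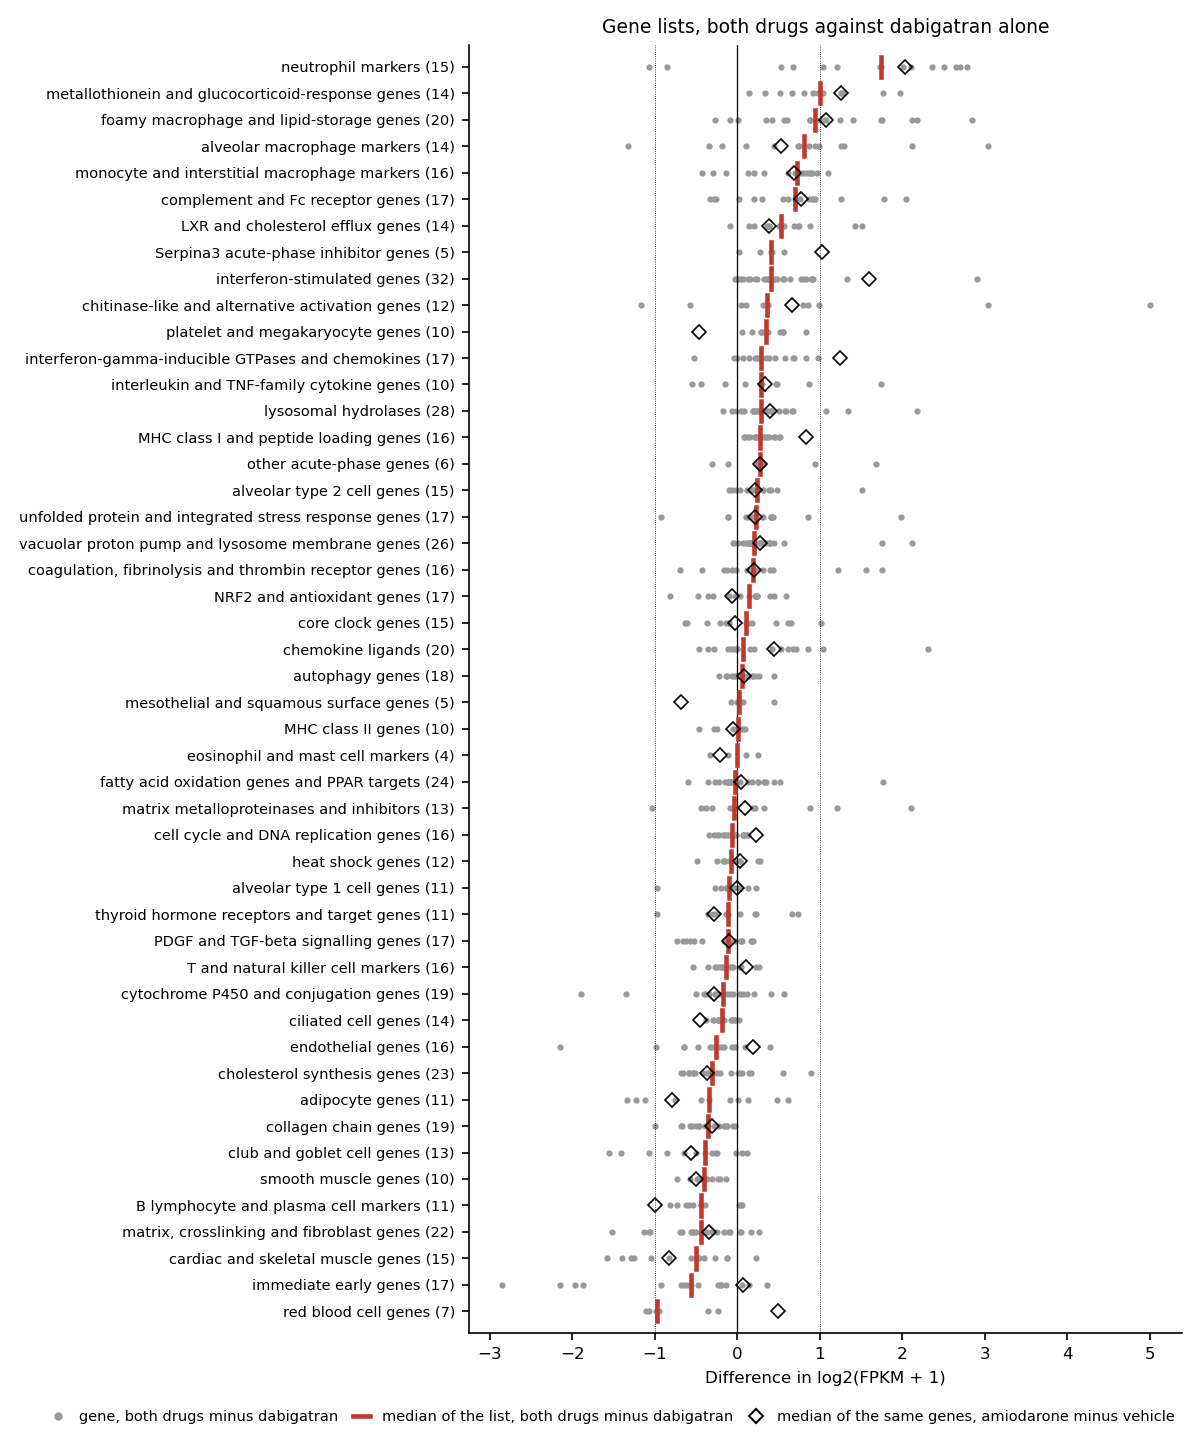
Each row is a gene list with the number of genes compared. Grey points are differences of single genes, both drugs minus dabigatran, on the log2(FPKM + 1) scale, red bars their medians, and open diamonds the medians of the same genes for amiodarone minus vehicle. The red bars run from 1.74 for neutrophil markers to -0.98 for red blood cell genes.

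Immediate early genes were mostly lower with both drugs. Of 17 genes, 14 were below 0, 8 were at least 1.5-fold lower and 4 at least 2-fold, with a median of -0.56. Nr4a1 (chr15:101253902-101274795), a nuclear receptor gene switched on within minutes of a stimulus, was at 81.4 FPKM (vehicle), 35.5 (amiodarone), 115 (dabigatran) and 15.02 (both drugs). Its level with both drugs was 0.13 times that with dabigatran (0.12 to 0.14), with the combination library lowest and the dabigatran library highest of the 4. The zinc finger gene Egr1 was at 74.96, 35.5, 81.9 and 17.7 FPKM in the same order (ratio 0.22, 0.20 to 0.23). Fosb fell from 10.3 to 1.88 FPKM, Egr3 from 7.20 to 1.23 and Nr4a3 from 5.31 to 0.72. Fos itself was at 22.2 and 15.7 FPKM and Jun at 120 and 109, both under 1.5-fold, and Zfp36 was higher, at 92.3 and 119 FPKM, also under 1.5-fold. With amiodarone against vehicle the list had a median of 0.07 with 10 of 17 genes above 0, and Nr4a1 and Egr1 were its only members at least 1.5-fold lower there. The change was more negative on the dabigatran background for 16 of 17 genes, a difference that was not tested. The share of all genes with a more negative change there was not counted.

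Matrix genes were lower as a group. All 19 compared collagen chain genes were below 0 (median -0.35), 3 of them at least 1.5-fold lower. Col3a1, a fibrillar chain, was at 95.6 FPKM (vehicle), 47.7 (amiodarone), 121 (dabigatran) and 59.9 (both drugs), a ratio of 0.49 (0.48 to 0.51). Col1a2 fell from 114 to 70.6 FPKM, while Col1a1 at 115 and 78.6 and Col4a1 of basement membrane at 176 and 159 were under 1.5-fold. Of 22 other matrix and fibroblast genes 6 were at least 1.5-fold lower, 4 of them at least 2-fold. Thbs1, an activator of latent TGF-beta, fell from 77.9 to 26.6 FPKM, the microfibril gene Mfap4 from 457 to 207 and Dpt, which binds decorin, from 72.1 to 33.8. Cyr61 (chr3:145646971-145649985), a matricellular gene, fell from 263 to 54.8 FPKM (ratio 0.21, 0.20 to 0.22). Its relative Ctgf was at 81.9 and 55.6, under 1.5-fold. Elastin (Eln) was at 70.1 and 84.3 FPKM, and the fibroblast receptor Pdgfra at 43.5 and 45.1. Mmp2, a gelatinase of fibroblasts, fell from 56.96 to 27.3 FPKM, while the neutrophil gelatinase Mmp9 rose from 3.68 to 9.83.

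Contractile genes were also lower. All 10 smooth muscle genes were below 0 (median -0.41), and only Cnn1 passed 1.5-fold, from 66.0 to 39.3 FPKM. Of 15 cardiac and skeletal muscle genes 6 were at least 1.5-fold lower and 5 at least 2-fold, among them Nppa, the atrial natriuretic peptide gene, from 76.5 to 31.5 FPKM, and Ckm, the muscle creatine kinase, from 31.6 to 12.3. Tnnt2 of heart muscle stayed at 158 and 145 FPKM. In the adipocyte list 4 of 11 were at least 1.5-fold lower, with Cfd, which encodes adipsin, from 106 to 41.5 FPKM and Adipoq from 6.85 to 2.61. Another 4 of the 11 were above 0, among them the lipase gene Pnpla2, which rose from 78.2 to 120.04 FPKM, and the counting interval of the list median (-0.35) took in 0. Whether the samples held unlike amounts of heart muscle or fat was not tested.

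Endothelial genes had a median of -0.26 over 16 genes, and 4 were at least 1.5-fold lower. Aplnr (chr2:85136360-85139923), the apelin receptor of capillary and venous endothelium, was at 24.2 FPKM (vehicle), 7.62 (amiodarone), 22.9 (dabigatran) and 4.36 (both drugs) (ratio 0.19, 0.17 to 0.22). Its ligand gene Apln fell from 22.5 to 10.8 FPKM and the growth factor receptor gene Kdr from 90.8 to 57.4, while Pecam1 at 294 and 238 and Flt1 at 34.3 and 33.7 were under 1.5-fold. Aplnr was lower with amiodarone on either background, but the list was not. With amiodarone against vehicle its median was 0.19 with 12 of 16 genes above 0. The change was more negative on the dabigatran background for 16 of 16, a difference that was not tested. The share of all genes with such a change was not counted.

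Several airway defence genes fell. Of 13 club and goblet cell genes 5 were at least 1.5-fold lower, 3 of them at least 2-fold, with a median of -0.39. Bpifa1, an antimicrobial surface protein of the airway, was at 255 FPKM (vehicle), 178 (amiodarone), 443 (dabigatran) and 149 (both drugs) (ratio 0.34, 0.32 to 0.35), and Bpifb1 fell from 179 to 67.0. The mucin Muc5b fell from 15.7 to 9.67 FPKM. Outside the list, the secreted protease inhibitor gene Slpi went the other way, from 26.7 to 57.25 FPKM. Scgb1a1, given above, did not move with them, and none of 14 ciliated cell genes passed 1.5-fold. The club cell cytochrome P450 gene Cyp2a5 fell from 90.7 to 35.0 FPKM and Cyp2e1 from 22.6 to 5.34, whereas Cyp2f2 was at 3746 and 2861 FPKM, under 1.5-fold.

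B lymphocyte genes had a median of -0.45 over 11 genes, 4 of them at least 1.5-fold lower, with Mzb1 of plasma cells from 8.11 to 4.16 FPKM. None of the 16 T and natural killer cell genes passed 1.5-fold (median -0.14), nor did any of the 16 cell cycle genes (median -0.06).

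**Figure D3:**
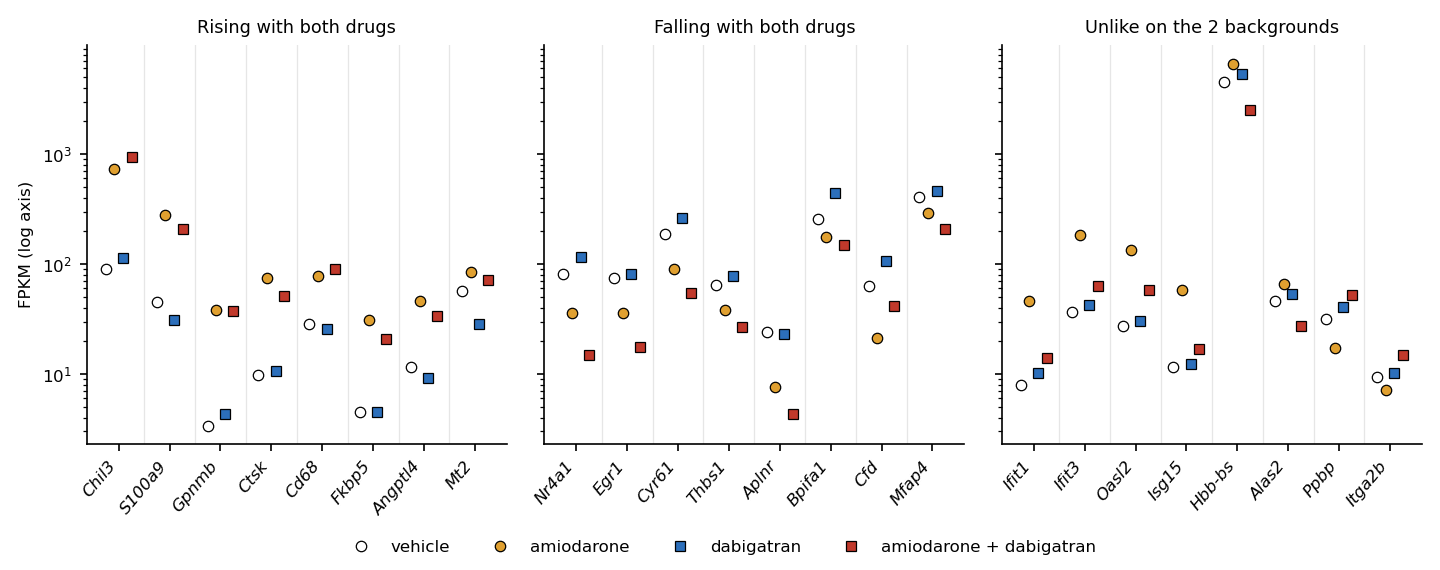
FPKM of 24 named genes on a log axis in the vehicle, amiodarone, dabigatran and amiodarone + dabigatran libraries, 1 point per library. On the left the amiodarone and combination libraries are above the other libraries, in the middle they are below them, and on the right the combination library does not follow the amiodarone library. Gpnmb, for example, was at 3.38, 37.9, 4.30 and 37.0 FPKM.

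The same drug was also measured on a vehicle background, in a comparison that shares no library with this one. Of the 154 genes at least 2-fold higher with both drugs than with dabigatran, 149 were above 0 with amiodarone against vehicle, and 101 were at least 2-fold higher there too, which is 65.6% of the 154 and 40.4% of the 250 higher with amiodarone. Of the 58 lower genes 52 were below 0 on that background and 17 of them passed 2-fold, 29.3% of the 58 and 23.3% of the 73. The 250 higher and 73 lower genes are out of 13402 compared for amiodarone against vehicle. The median change there over the 13379 genes was -0.04. The 154 had medians of 1.34 on the dabigatran background and 1.23 on the vehicle background, and the 58 had medians of -1.21 and -0.74. Since the 212 genes were chosen by their change on the dabigatran background, their medians there are set by that choice.

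The amiodarone change on the dabigatran background was at least 2-fold more positive than on the vehicle background for 50 of 13536 genes (0.369%) and at least 2-fold more negative for 93 (0.687%). Neutrophil markers (medians of 1.74 and 2.03), foamy macrophage genes (0.94 and 1.07), lysosomal hydrolases (0.28 and 0.39) and collagen chains (-0.35 and -0.31) had medians close together. The summed FPKM of neutrophil markers were further apart, at 355.4 (vehicle), 1636.1 (amiodarone), 340.2 (dabigatran) and 855.5 (both drugs). The lipocalin gene Lcn2 was at 157, 921, 155 and 320 FPKM in the same order. Of the 15 neutrophil genes the change was more positive on the dabigatran background for 8 and more negative for 7. Interferon-stimulated genes were far apart, at 0.41 and 1.59, and the change was smaller on the dabigatran background for 32 of 32 genes. Ifit1, which binds foreign RNA, was at 7.86 FPKM (vehicle), 46.1 (amiodarone), 10.3 (dabigatran) and 14.1 (both drugs). The change was also smaller for 16 of 16 MHC class I genes, with medians of 0.27 and 0.83, and for 17 of 17 genes induced by interferon gamma, with medians of 0.29 and 1.24. Over the 13379 genes the medians were -0.01 and -0.04. How many of all genes had a smaller change, short of 2-fold, was not counted for comparison. With 1 library a group, the spread between animals in these genes is unknown, and whether the backgrounds differ was not tested.

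Red blood cell and platelet genes changed sign. Of 7 compared red cell genes all were below 0 with both drugs against dabigatran (median -0.98) and all above 0 with amiodarone against vehicle (0.49). The beta globins Hbb-bs and Hbb-bt, which share much sequence, summed to 5160 FPKM (vehicle), 7498 (amiodarone), 6043 (dabigatran) and 2895 (both drugs), and the alpha globins to 10580, 13844, 11440 and 5602. Alas2, the heme synthesis enzyme of red cell precursors and reticulocytes, was at 46.2, 65.4, 53.6 and 27.3 FPKM, so the combination library was the lowest and the amiodarone library the highest in each. All 10 platelet genes were above 0 with both drugs (median 0.34) and below 0 with amiodarone (median -0.46). Ppbp, a platelet chemokine, was at 31.8, 17.1, 40.3 and 52.4 FPKM, and Itga2b, the platelet integrin, at 9.41, 7.20, 10.1 and 14.95. Only Gp1bb, a subunit of the receptor for von Willebrand factor, passed 1.5-fold, from 4.59 to 8.96 FPKM.

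**Figure D4:**
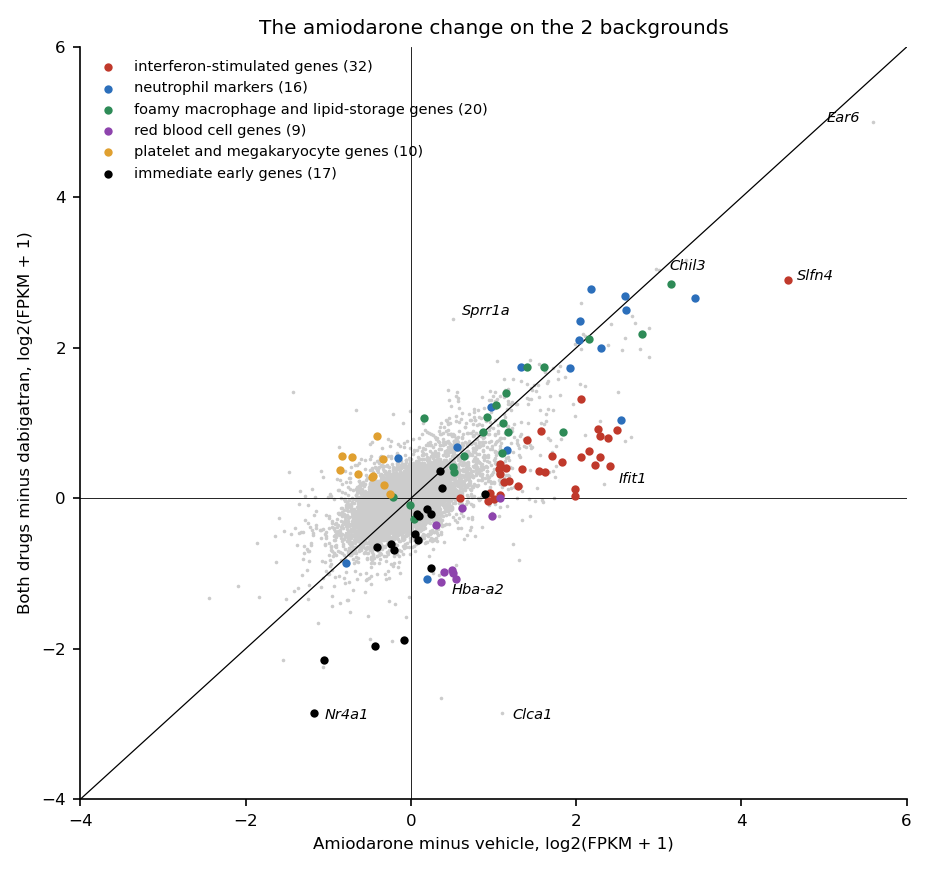
Each grey point is 1 of the 13536 genes, placed by the amiodarone change on the vehicle background (horizontal) and on the dabigatran background (vertical), both as log2(FPKM + 1) differences, and coloured points are members of 6 gene lists. Most neutrophil and foamy macrophage genes lie near the diagonal, the 32 interferon-stimulated genes lie below it, and the medians of the red blood cell genes (0.49 and -0.98) and of the platelet genes (-0.46 and 0.34) fall in opposite quadrants.

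Single genes stood apart in the same comparison. Sprr1a, a cornified envelope protein, was at 3.74 FPKM (vehicle), 5.75 (amiodarone), 2.39 (dabigatran) and 16.7 (both drugs). Of 5 compared mesothelial genes all were below 0 with amiodarone against vehicle, 3 of them past 1.5-fold, and none passed 1.5-fold with both drugs against dabigatran. Lrrn4, a member, was at 12.9, 4.42, 14.7 and 13.9 FPKM in the same order. Ifi27l2a, an interferon-induced gene, stood at 60.9, 245, 101 and 110 FPKM.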

How the data were processed

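RNA-Seq of lung was made from 4 mouse groups, with 1 library each, grouped by GEO's treatment labels. The authors mapped DNBseq reads to GRCm38.p6 with HISAT 2.0.4 and Bowtie2 2.2.5 and used RSEM 1.2.8. The authors deposited, per gene and library, an estimated count of reads and a normalized value. The deposited values are read as FPKM on a linear scale, a unit inferred because reads per unit of value differed between libraries by the ratio of their totals. Another 8 deposited columns, means over libraries, were not used.

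Genes that reached 1 FPKM in either library were compared on log2(FPKM + 1) with Python 3.11.15, numpy 2.4.6, pandas 2.3.3 and scipy 1.17.1, and called at 2-fold. Counting intervals used reads rounded to whole numbers. Differences between backgrounds used genes that reached 1 FPKM in any library. Procedures were tested on simulated data. The comparison, the gene lists (746 of 781 genes listed have a row) and the rules were chosen with earlier results of these data known. Named genes were the 20 largest rises and 20 largest falls among genes reaching 5 FPKM in either library with an interval leaving out no change, list members, and the 10 genes each way that differed most between backgrounds (at least 5 FPKM, interval leaving out 0). A mitochondrial list was not analysed here. Some genes under these rules are not reported here. Coordinates and promoters come from RefSeq (GRCm38.p6); 17669 gene IDs (99.4%) and, for promoters, 13953 of 17780 genes matched. Alternatives were a pseudocount of 0.1, other filters, median-ratio and TMM scaling (edgeR 4.0.16, R 4.3.3), CPM and a 1.5-fold limit.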

Additional observations from a re-analysis of the deposited data

Results flagged for a closer look

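Some results moved in opposite directions on the dabigatran and the vehicle background, and with 1 library a group none of these differences was tested. Clca1 (chr3:145004537-145032776), a secreted protein of goblet cells, was at 3.53 FPKM (vehicle), 8.72 (amiodarone), 13.99 (dabigatran) and 1.08 (both drugs), from 178, 471, 716 and 59 reads. Its change on the dabigatran background was lower by a log2 difference of -3.95 than that on the vehicle background. Slurp1, a secreted squamous epithelial peptide, was at 13.8, 7.08, 12.6 and 20.7 FPKM in the same order, and its change was more positive on the dabigatran background by 1.55.

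The red blood cell genes had a median of -0.98 on the dabigatran background and 0.49 on the vehicle background, and the platelet and megakaryocyte genes had medians of 0.34 and -0.46. In each list every compared gene took the sign of its median on the vehicle and on the dabigatran background.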

How the results depend on the processing

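No paired analysis was possible because each group has 1 library, and no replicate could be left out. The 154 higher genes became 239 with a pseudocount of 0.1 and 435 at 1.5-fold, and the 58 lower genes became 125 and 273. The genes whose change differed at least 2-fold between backgrounds, 143 in all, became 339 and 638 under the same alternatives. A smaller pseudocount and a lower fold admit more genes by construction. Under the other alternatives tried (filters of 5 FPKM or none, 3 other scalings, and counting intervals) these counts stayed within 1.5-fold of their main values. Of the medians of gene lists, 283 of 288 recomputed values stayed within their counting interval and 5 moved outside it. With no filter on FPKM, the neutrophil median went from 1.74 to 1.21 and the red blood cell median from -0.98 to -0.65. The club and goblet cell median went from -0.39 to -0.35 and that of other acute-phase genes from 0.27 to 0.07. Club and goblet cell genes also moved with TMM scaling, to -0.37. Of the values recomputed for named genes, each under several alternatives, 196 stayed and 28 moved. No named gene changed sign. The medians of 5 lists that lay close to 0 did, all within their counting intervals: matrix metalloproteinases (-0.04 to 0.07) and cell cycle genes (-0.06 to 0.07) with a 5 FPKM filter, mesothelial genes (0.02 to -0.08) with no filter, MHC class II genes (0.00 to -0.02) with a 5 FPKM filter, and eosinophil and mast cell markers (-0.01 to 0.01) with TMM scaling. The median over all compared genes stayed between -0.01 and 0.01 under the pseudocounts, filters and scalings. Depth limits genes near 1 FPKM, and the spread between animals was not measured.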

Other observations

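Gene families outside the lists were chosen after their values were seen. Paired immunoglobulin-like receptors of myeloid cells (Lilr, Pir and Sirpb) were at least 1.5-fold higher with both drugs than with dabigatran in 10 of 10 genes, with a median of 1.32 on the log2(FPKM + 1) scale. Pirb, an inhibitory member, rose from 7.56 to 23.6 FPKM. The copies Lilr4b and Lilrb4a summed to 14.0 and 69.9 FPKM. Of 10 compared Ms4a genes, which encode tetraspan membrane proteins, 7 were at least 1.5-fold higher, with Ms4a6d from 2.96 to 12.1 FPKM. Of 9 Cd300 lipid-binding receptor genes 6 were at least 1.5-fold higher, with Cd300lf from 4.03 to 19.7. The adaptor gene Tyrobp, through which many such receptors signal, rose from 78.7 to 203 FPKM, and Mpeg1, a pore-forming protein of macrophages, from 30.7 to 86.4.

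Among single genes chosen after their values were seen, Cebpd, a transcription factor of the acute phase, rose from 37.1 to 95.2 FPKM, Ch25h, which makes an oxysterol, from 3.48 to 11.1, and Mcoln3, a lysosomal calcium channel, from 1.23 to 5.34. Of 7 compared Notch ligand and target genes 3 were at least 1.5-fold lower, with Nrarp from 39.1 to 17.9 FPKM, Dll4, the ligand of tip cells, from 36.0 to 20.6 and Hes1 from 73.9 to 46.2. Of 8 carboxylesterase (Ces) genes 4 were at least 1.5-fold lower, with Ces1f from 6.96 to 2.47 FPKM. The thromboxane receptor gene Tbxa2r fell from 8.46 to 3.23 FPKM and Wnt10b from 7.08 to 2.26. Gm14434, a predicted gene with close copies, had 421 estimated reads with dabigatran and fewer than 3 with both drugs, at least 149-fold lower. Reads can be divided differently among such copies and were not summed over them, so this fold is uncertain. The predicted gene Gm4724 was at 2.77 FPKM (vehicle), 0.40 (amiodarone), 0.78 (dabigatran) and 3.73 (both drugs).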
